A study of Arabidopsis thaliana with 6 samples.

Results

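Of the 5288 genes listed on Chr. 2, 186 were at most 0.5 times as abundant in leaves of the *flpl1* mutant as in Col-0, although the mutant carries an additional copy of that chromosome. These genes were chosen from their own values: a mean of at least 5 CPM (the read count of a gene divided by the sum of the counts of its library, times 1000000) in Col-0, and a mean CPM in *flpl1* of at most 0.5 times the Col-0 mean. They are 8.90% of the 2090 Chr. 2 genes above the CPM minimum, among 32243 genes listed in all. Their lower level in *flpl1* is therefore the criterion and is described here without a test. The libraries were RNA-seq of mature leaves from 3 *flpl1* plants and 3 Col-0 plants of one age, and each library came from 1 plant. *flpl1* is line C30-81-as6 of *Arabidopsis thaliana*, a late-flowering mutant with large petioleless leaves that arose from carbon ion irradiation of Col-0 seeds. It carries 3 copies of Chr. 2 in place of 2, together with a translocation between Chr. 1 and Chr. 2 and further mutations, and Col-0 is its unirradiated parent accession. All 3 mutant plants belong to this single line and were picked by their phenotype and their DNA content, so the additional chromosome and the other lesions of the line cannot be told apart. Mutant and wild type were of the same age although the mutant flowers later, so genotype and developmental stage cannot be told apart either.

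When a chromosome is present in an additional copy, the transcripts of most of its genes become more abundant roughly with the copy number. The expression of a single gene also depends on the factors that act on its promoter and on the stability of its mRNA, and many regulators of a leaf change with age, time of day and stress. Genes of the dehydration hormone abscisic acid, of leaf senescence and of the circadian clock are among the most variable genes of a mature leaf. A gene with an additional copy that is nevertheless less abundant has moved against its gene dosage.

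The libraries held between 19465078 and 24633070 counts. The mesophyll markers summed to 20825 to 26985 FPKM (the count per kilobase of exonic sequence and per 1000000 counts) in *flpl1* and to 9299 to 13579 FPKM in Col-0. Of the 3 mesophyll markers, *RBCS1A* lay at 11469 to 16821 FPKM in *flpl1* against 3225 to 4941 FPKM in Col-0, whereas *RCA* lay at 5447 to 6260 FPKM against 5251 to 5811 FPKM. The root and seed markers summed to at most 0.02 FPKM in any library. The xylem markers summed to 19.3 to 42.1 FPKM in *flpl1* against 2.12 to 4.46 FPKM in Col-0, and the epidermis markers to 114 to 123 FPKM against 49.7 to 53.7 FPKM. The flower markers summed to 2.40 to 3.04 FPKM in *flpl1* and 3.52 to 8.54 FPKM in Col-0, with *AP1* at 0 in all 6 libraries. The flower markers did not share a direction: *AG* lay at 2.28 to 2.75 FPKM in *flpl1* against 1.05 to 1.18 FPKM in Col-0, and *PI* at 0 to 0.05 FPKM against 1.02 to 6.08 FPKM. The part of these shifts in the values below was not tested, and in whole leaves fewer cells of a type and less RNA per cell cannot be told apart.

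The 186 genes formed the lower tail of a chromosome that was shifted upward. Their median ratio of mean CPM, *flpl1* over Col-0, was 0.363. In contrast, the other 1904 genes of Chr. 2 above the minimum had a median ratio of 1.26. Per gene copy, the median of the 186 was 0.242, on a scale where the genes of Chr. 1, 3, 4 and 5 had a median of 0.763. A ratio of at most 0.1 was found for 28 genes, 0.1 to 0.25 for 30, 0.25 to 0.4 for 57 and 0.4 to 0.5 for 71. The members together held 0.505%, 0.532% and 0.640% of the counts of the *flpl1* libraries, against 1.59%, 1.83% and 1.76% for Col-0. On the other chromosomes the same limits held more genes: 829 of 3669 (22.6%) on Chr. 1, 561 of 2783 (20.2%) on Chr. 3, 478 of 2119 (22.6%) on Chr. 4 and 657 of 3263 (20.1%) on Chr. 5. Over these 4 chromosomes, 21.3% of 11834 genes lay at or under the limit, and over all genes above the minimum 19.4%. The median ratio was 1.19 on Chr. 2 and 0.763 on Chr. 1, 3, 4 and 5 on this scale of shares of the counts. After each library was scaled to the median gene of Chr. 1, 3, 4 and 5, 107 genes met the limits and the median ratio of the 186 was 0.473. When each gene was set against the median of its own chromosome, the difference between chromosomes shrank. The share of genes at or under 0.5 times that median was 12% on Chr. 2 (251 genes), and 12.8%, 11.1%, 12% and 11.6% on Chr. 1, 3, 4 and 5.

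**Figure D1:**
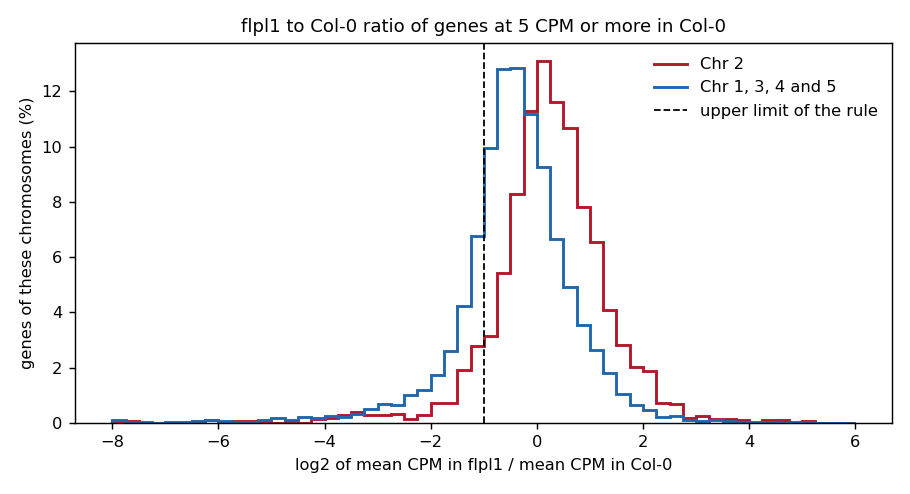
Distribution of the log2 ratio of mean CPM in *flpl1* to mean CPM in Col-0 for genes with at least 5 CPM in Col-0, as the percentage of the genes of Chr. 2 (red) and of Chr. 1, 3, 4 and 5 (blue) in bins of 0.25. The Chr. 2 curve lies to the right, with a median ratio of 1.19 against 0.763, and 8.90% of its genes lie left of the dashed limit against 21.3% on the other chromosomes.

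Of the 186 genes, 174 had all 3 *flpl1* libraries below all 3 Col-0 libraries, where 20.1% of the Chr. 2 genes and 45.5% of all genes above the minimum did. All 186 passed the filter on low counts, and 144 were downregulated DEGs (edgeR's quasi-likelihood test, Benjamini-Hochberg adjusted p under 0.05 and at least 2-fold), against 14.4% of the 18638 genes tested and 7.69% of those on Chr. 2. Upregulated DEGs made up 19.8% of all genes tested. Both counts of members use the comparison that chose the genes and are given as a description. The adjusted p was under 0.05 for 176 members, and the 42 members outside the DEG limits include those whose fold change on the TMM scale of edgeR was smaller than 2. Of the members, 181 were protein coding.

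The lowest ratios belonged to genes that were close to absent in *flpl1* leaves. The pseudogene AT2G04460 (Chr. 2, 1547538 to 1548999) had 0 counts in each *flpl1* library, against 68, 66 and 234 counts in Col-0, and was at least 121-fold lower if the 3 mutant libraries together are set at 3 counts. AT2G29370 (Chr. 2, 12606059 to 12607618), a Rossmann-fold oxidoreductase, had 2, 1 and 0 counts in *flpl1* and 22, 244 and 260 counts in Col-0, a ratio of the pooled rates of 0.00579 with an exact interval of 0.00119 to 0.0170 that covers counting error only. In both genes the Col-0 libraries also differed widely from each other, and AT2G04460 was outside the limits without Col-0 replicate 3. The ratio of the mean CPM of AT2G29370, 0.00537, became 0.00302 without *flpl1* replicate 1 and 0.00806 without *flpl1* replicate 3.

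*RLP20* (AT2G25440, Chr. 2, 10826735 to 10829402), a receptor-like protein gene, had 0.125, 0 and 0.180 CPM in *flpl1*, against 3.78, 7.48 and 12.4 CPM in Col-0. AT2G32140 (Chr. 2, 13655627 to 13657175), annotated as a transmembrane receptor, had 1.25, 1.35 and 1.26 CPM in *flpl1*, against 29.9, 89.7 and 73.8 CPM in Col-0. The mutant plants agreed closely in the low value of AT2G32140 while the wild type plants spread over a wider range, and no library of one genotype reached the other. The ratio of *RLP20*, 0.0129, became 0.0193 without *flpl1* replicate 2 and 0.00789 without *flpl1* replicate 3.

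*MYB2* (AT2G47190, Chr. 2, 19376202 to 19377531), a MYB transcription factor gene of dehydration and abscisic acid responses, had 0.0831, 0.349 and 0.676 CPM in *flpl1*, against 9.38, 17.2 and 12.8 CPM in Col-0. *HIS1-3* (AT2G18050, Chr. 2, 7845923 to 7846884), the linker histone variant that is induced by drought, had 9.09, 11.9 and 43.4 CPM in *flpl1*, against 385, 608 and 555 CPM in Col-0. The third mutant plant stood above the other mutant plants in *HIS1-3* and still lay far below each Col-0 plant. Without that mutant plant the ratio of *HIS1-3* was 0.0203 in place of 0.0416, and that of *MYB2* 0.0165 in place of 0.0282.

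The glycine-rich protein genes AT2G05540 and *GRP3S* shared a pattern among the wild type plants. AT2G05540 (Chr. 2, 2033156 to 2034217) had 0.831, 1.5 and 0.586 CPM in *flpl1*, against 133, 43.0 and 40.3 CPM in Col-0. *GRP3S* (AT2G05380, Chr. 2, 1966816 to 1968037) had 4.03, 4.89 and 11.8 CPM in *flpl1*, against 202, 64.5 and 82.4 CPM in Col-0. In both genes Col-0 replicate 1 was the highest of the Col-0 libraries, and without it the ratio was 0.0233 in place of 0.0135 for AT2G05540 and 0.0938 in place of 0.0592 for *GRP3S*. Without *flpl1* replicate 3 the ratio of *GRP3S* was 0.0383.

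The remaining genes among the 12 lowest ratios encode a haloacid dehalogenase-like hydrolase (AT2G36540, ratio 0.0146), a cytochrome P450 (*CYP76C2*, 0.0232), the clock-related protein ELF4-L1 (0.0560) and a methyltransferase (AT2G41380, 0.0602). AT2G36540 had 0.0415, 0.0499 and 0.135 CPM in *flpl1*, against 3.94, 5.46 and 6.16 CPM in Col-0, and was outside the limits without Col-0 replicate 3. AT2G41380 had 1.20, 1.10 and 2.52 CPM in *flpl1*, against 10.3, 27.5 and 42.4 CPM in Col-0. *CYP76C2* had 0.0831, 0 and 0.270 CPM in *flpl1*, against 1.58, 1.81 and 11.9 CPM in Col-0. The Col-0 mean of *CYP76C2* rested mostly on replicate 3, and without that library its ratio was 0.0695 in place of 0.0232 and its Col-0 mean fell under the CPM minimum. Without *flpl1* replicate 3 the ratio of *CYP76C2* was 0.00817, and that of AT2G36540 was 0.00881 in place of 0.0146.

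**Figure D2:**
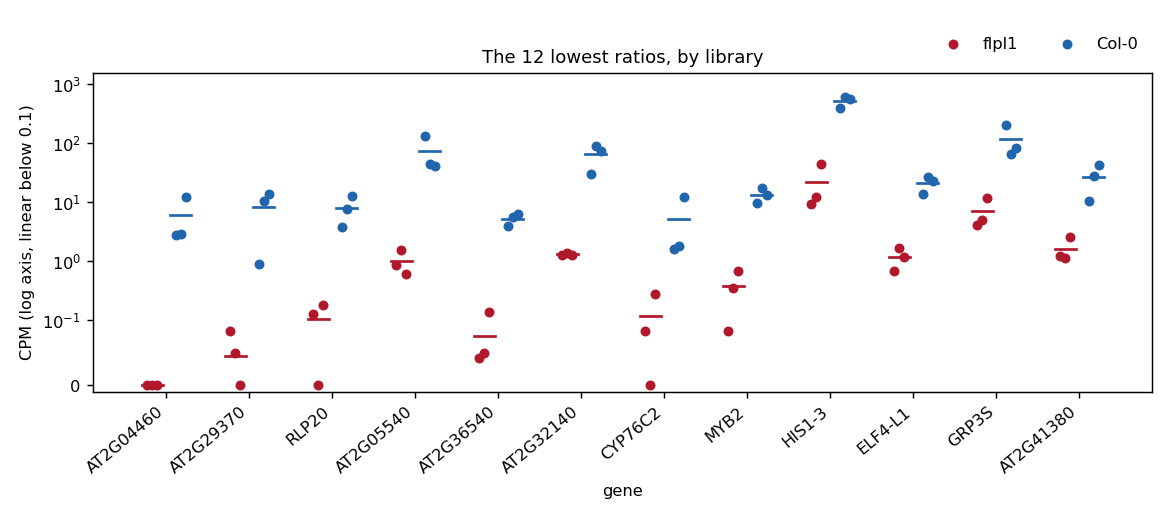
CPM of the 12 members with the lowest ratios in each library (logarithmic axis, linear below 0.1), with *flpl1* in red, Col-0 in blue and a bar at each mean. No *flpl1* point reaches a Col-0 point of the same gene, and AT2G04460 lies at 0 in the 3 mutant libraries.

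The members also included genes that are abundant in wild type leaves. Their mean FPKM in Col-0 ranged up to 897, with a median of 24.1 against 17.6 for the other genes of Chr. 2 that passed the CPM minimum, and 31 members had a mean of at least 100 FPKM. The most abundant was the calcium-binding EF-hand protein gene AT2G46600 (Chr. 2, 19136019 to 19136600), with 50.7, 59.3 and 73.7 FPKM in *flpl1*, against 804, 919.5 and 967 FPKM in Col-0. A second EF-hand gene, AT2G41410 (Chr. 2, 17261728 to 17262884), had 36.6, 49.5 and 59.6 FPKM in *flpl1*, against 366, 413 and 350.3 FPKM in Col-0. Both were separated between the genotypes by more than 5 times in every pair of libraries.

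*CAX1* (AT2G38170, Chr. 2, 15989083 to 15993278), which encodes a calcium/proton exchanger of the vacuole membrane, had 142, 210.4 and 238 FPKM in *flpl1*, against 521, 739.7 and 605 FPKM in Col-0. *HB6* (AT2G22430, Chr. 2, 9526095 to 9527830), a homeodomain-leucine zipper gene of abscisic acid signaling, had 259, 182 and 259 FPKM in *flpl1*, against 470.2, 574 and 481 FPKM in Col-0. *THIC* (AT2G29630, Chr. 2, 12666935 to 12670311), which acts in the synthesis of the pyrimidine part of thiamine, had 119, 127 and 123 FPKM in *flpl1*, against 249, 346 and 292 FPKM in Col-0. In these 3 genes the ratio lay between 0.316 and 0.459, a smaller shift than that of the EF-hand genes.

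The other abundant members were the stress-induced protein gene AT2G15960 (ratio 0.413), the oxygenase gene AT2G25450 (0.373), the histone gene AT2G28720 (0.279), the dormancy/auxin-associated gene AT2G33830 (0.176), the DnaJ-domain gene AT2G42750 (0.456) and the methyltransferase gene AT2G32160 (0.249). AT2G15960 averaged 278 ± 5.62 FPKM in *flpl1* and 674 ± 176 FPKM in Col-0 (SD, n = 3), and AT2G25450 234 ± 4.69 FPKM in *flpl1* and 626 ± 77.5 FPKM in Col-0. AT2G28720 averaged 74.7 ± 9.51 FPKM in *flpl1* and 268 ± 57.6 FPKM in Col-0, and AT2G42750 115 ± 7.60 FPKM in *flpl1* and 253 ± 13.4 FPKM in Col-0. The mutant plants lay close together in AT2G15960 and AT2G25450 compared with the wild type plants. AT2G33830 had 38.3, 52.0 and 47.4 FPKM in *flpl1*, against 455, 188 and 137 FPKM in Col-0, with Col-0 replicate 1 at more than 2 times the level of the other wild type plants. Its ratio was 0.282 without that library.

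**Figure D3:**
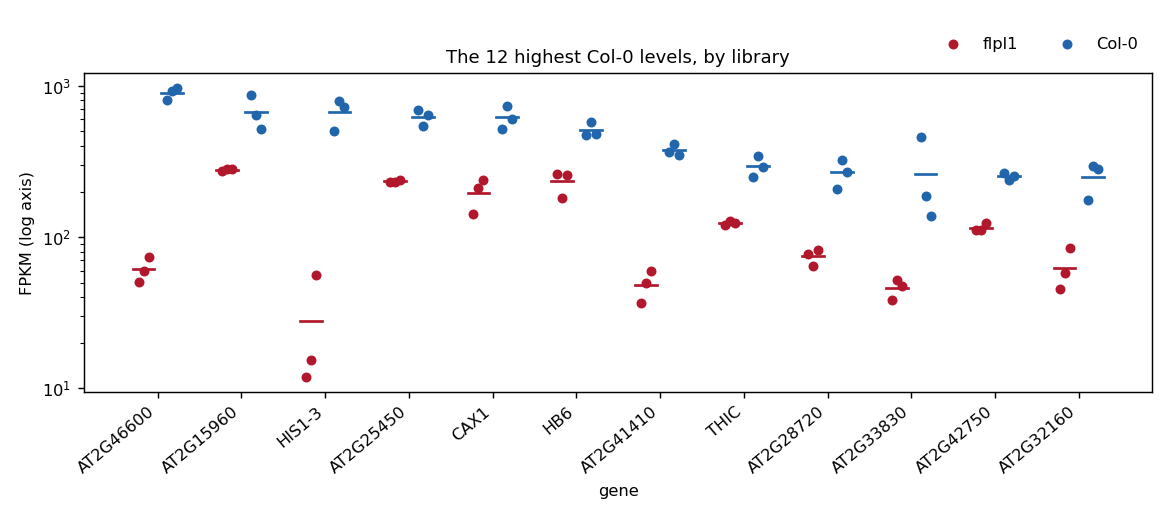
FPKM (logarithmic axis) of the 12 members with the highest mean FPKM in Col-0, by library, with *flpl1* in red, Col-0 in blue and a bar at each mean. *HIS1-3* has the widest relative spread among the mutant plants, between 11.8 and 56.4 FPKM, and AT2G46600 the highest Col-0 mean, 897 FPKM.

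ELF4 proteins form the evening complex of the circadian clock together with ELF3 and LUX, and repress morning genes during the night. The 3 genes of this family on Chr. 2 were all members. *ELF4* (AT2G40080, Chr. 2, 16734294 to 16734912) had 2.87, 2.99 and 3.60 CPM in *flpl1*, against 7.06, 14.3 and 16.0 CPM in Col-0. *ELF4-L1* (AT2G29950, Chr. 2, 12767585 to 12768435) had 0.664, 1.65 and 1.17 CPM in *flpl1*, against 13.5, 26.2 and 22.5 CPM in Col-0. *ELF4-L3* (AT2G06255, Chr. 2, 2457573 to 2459811) had 1.25, 1.95 and 1.62 CPM in *flpl1*, against 11.7, 16.0 and 13.2 CPM in Col-0. None of the mutant libraries reached the lowest Col-0 library in any of them.

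The family has 2 further genes, on Chr. 1. *ELF4-L2* had 18.2, 20.9 and 22.8 CPM in *flpl1*, against 23.6, 29.3 and 26.2 CPM in Col-0. *ELF4-L4* had 6.60, 6.58 and 5.59 CPM in *flpl1*, against 7.79, 8.64 and 8.43 CPM in Col-0. Neither was a DEG (log2 fold change -0.20, standard error 0.12, adjusted p = 0.164 for *ELF4-L2*; log2 fold change -0.25, standard error 0.16, adjusted p = 0.206 for *ELF4-L4*; edgeR quasi-likelihood test). *ELF4-L3* and the Chr. 1 relatives were looked up after the values of *ELF4* and *ELF4-L1* had been seen, and the difference between the chromosomes was not tested.

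Among the other clock genes on Chr. 2, *CCA1* and *PRR9*, which peak in the morning, and *GRP7* had ratios of 0.528, 0.664 and 0.517 and lay outside the limit, and *ELF3* had a ratio of 1.33. Of the 14 clock genes listed on other chromosomes, all were tested, 8 were downregulated DEGs and 1 was an upregulated DEG, where 15.6% and 17.4% of the genes of these chromosomes were. The downregulated genes were *PRR3*, *PRR5*, *ZTL*, *RVE1*, *COR27*, *CCR1*, AT5G64170 and AT4G33980. *PCL1*, the gene of the evening complex protein LUX, was upregulated (log2 fold change 1.23, standard error 0.33, adjusted p = 0.0135, edgeR). The time of day of the harvest is not given in the sources used here, and its part was not tested.

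*AGL20* (AT2G45660, Chr. 2, 18807538 to 18811047), a MADS-box gene that promotes flowering, was the single member in the list of flowering time genes. It had 57.2, 59.1 and 56.6 CPM in *flpl1*, against 251, 266 and 235 CPM in Col-0, and both groups were narrow. The list held 6 genes of Chr. 2 above the CPM minimum. *SNZ*, *SPL3*, *RAP2.7* and *SPL9* had ratios of 4.13, 2.46, 1.74 and 1.41, and *SVP* had 0.870. Of the 16 flowering genes tested on other chromosomes, *FT*, *TSF*, *GI*, *FKF1* and *AGL8* were downregulated and *SPL15*, *AGL24* and *AGL19* upregulated. Among all tested genes of these chromosomes, 15.6% were downregulated and 17.4% upregulated. *BOP2*, a regulator of the proximal part of the leaf chosen here after its values were seen, had 3.61, 2.69 and 2.43 CPM in *flpl1*, against 5.52, 11.2 and 5.96 CPM in Col-0, and Col-0 replicate 2 was the highest library, without which *BOP2* was outside the limits.

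Single members with known roles in abscisic acid or dehydration responses are given next. *HB-7* (AT2G46680, Chr. 2, 19165403 to 19166949), a homeodomain-leucine zipper gene induced by abscisic acid and drought, had 27.0, 28.8 and 58.8 CPM in *flpl1*, against 155, 166 and 208 CPM in Col-0. *CYP707A2*, named after its values were seen, encodes an enzyme of abscisic acid catabolism and had 15.8, 9.23 and 14.5 CPM in *flpl1*, against 31.4, 92.2 and 67.4 CPM in Col-0. *GBF3* (AT2G46270, Chr. 2, 19000191 to 19003403), a G-box binding factor gene, had 4.07, 10.9 and 17.5 CPM in *flpl1*, against 16.9, 22.1 and 25.9 CPM in Col-0, and its groups overlapped.

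Further members, named after their values were seen, included *NAC036* (ratio 0.0649), a NAC transcription factor gene, *CKX1* (0.0645), which encodes a cytokinin-degrading enzyme, *SAUR36* (0.0863), an auxin-responsive gene of senescing leaves, the gene AT2G28400 (0.0886), annotated as a senescence regulator, and *ERD7* (0.156), a dehydration-induced gene. *NAC036* had 7.02, 9.13 and 10.5 CPM in *flpl1*, against 190.1, 123 and 97.9 CPM in Col-0. All 5 were separated between the genotypes, and without *flpl1* replicate 3 the ratio of *SAUR36* was 0.0519.

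In the list of leaf senescence genes, *MYB2* was the single member among the 2 Chr. 2 genes above the minimum, and of the 18 genes tested on other chromosomes 14 were downregulated DEGs and 1 was an upregulated DEG (edgeR). The median log2 fold change of these 18 genes was -2.01. In the list of abscisic acid and cold genes, 15 of 20 on other chromosomes were downregulated and 0 upregulated (median log2 fold change -1.85). The downregulated genes included the phosphatase genes *ABI1*, *ABI2*, *HAB1* and *HAI1* and the dehydration markers *LTI78* and *RD26*. No gene of these 20 was higher at an unadjusted p under 0.05 (0 genes), and DESeq2 and limma called 0 higher as well. Over all tested genes of Chr. 1, 3, 4 and 5 the median was -0.10, and 15.6% were downregulated and 17.4% upregulated. On Chr. 2, 0 of the 4 Chr. 2 genes of this list above the minimum were members. *P5CS1*, *COR15A* and *COR15B* had ratios of 3.86, 1.65 and 1.20, and *RD20* had 0.676. The difference between the chromosomes was not tested.

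The remaining lists held few members. *WRKY46* (AT2G46400, Chr. 2, 19043414 to 19044826), a WRKY factor gene of salicylic acid defence, had 4.94, 4.19 and 6.98 CPM in *flpl1*, against 7.59, 14.5 and 14.1 CPM in Col-0, and it was 1 member among the 9 WRKY genes of Chr. 2 above the minimum. Of the WRKY genes on other chromosomes, 3 of 11 were downregulated and 1 upregulated. In the salicylic acid list, 3 of 15 genes on other chromosomes were downregulated and 4 upregulated. The core hypoxia, jasmonate, ethylene, glucosinolate and light harvesting lists had 0 members, among 0, 2, 4, 4 and 6 Chr. 2 genes above the minimum. The core hypoxia list could therefore not hold a member. Genes of these lists on other chromosomes were downregulated in 4 of 11, 1 of 18, 2 of 16, 5 of 26 and 0 of 12 cases. They were upregulated in 2, 5, 2, 3 and 5 cases (edgeR). For the light harvesting list, the count lower at an unadjusted p under 0.05 and the downregulated counts of DESeq2 and limma were also 0. All 6 Chr. 2 genes of that list above the minimum had ratios over 1. Over all 12 lists, 60 of 179 genes tested outside Chr. 2 were downregulated and 26 upregulated, and the upregulated count was 43 without Col-0 replicate 1. The shares over all tested genes of Chr. 1, 3, 4 and 5, against which each list stands, were 15.6% downregulated and 17.4% upregulated.

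Several members lay in tandem arrays of related genes, and in some arrays the ratios of neighbors lay on both sides of 1. Of the 7 tau-class glutathione transferase genes between *GSTU7* and *GSTU1*, which encode enzymes that conjugate glutathione to reactive compounds, these 2 were members. *GSTU7* (AT2G29420, Chr. 2, 12617936 to 12618899) had 26.4, 29.5 and 29.1 CPM in *flpl1*, against 49.3, 65.0 and 82.8 CPM in Col-0. *GSTU1* (AT2G29490, Chr. 2, 12631378 to 12632473) had 4.82, 6.28 and 8.29 CPM in *flpl1*, against 15.7, 8.77 and 27.6 CPM in Col-0. Both genes lay lower in every mutant plant than in any wild type plant, and *GSTU1* was outside the limits without Col-0 replicate 3. Their neighbor *GSTU6*, by contrast, had 5.65, 5.99 and 4.05 CPM in *flpl1*, against 0.406, 0.301 and 0.257 CPM in Col-0 (log2 fold change 4.13, standard error 0.35, adjusted p = 0.000134, edgeR). *GSTU5* had a ratio of 1.14 and *GSTU4* 0.542. *GSTU2* and *GSTU3*, below the CPM minimum, had ratios of 0.345 and 2.16 on few counts. In the list of glutathione transferases these were 2 members of 7 Chr. 2 genes above the minimum, and on other chromosomes *GSTU24* and *GSTU8* were downregulated among 7 tested. By edgeR 0 were upregulated there, 1 was higher at an unadjusted p under 0.05, and DESeq2 and limma called 0.

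The aldo-keto reductase genes, whose products reduce reactive carbonyls, form an array of 3. *ChlAKR* had 2.37, 1.25 and 2.66 CPM in *flpl1*, against 13.4, 9.63 and 47.6 CPM in Col-0, and its ratio was 0.181 without Col-0 replicate 3 in place of 0.0887. *AKR4C8* (AT2G37760, Chr. 2, 15831854 to 15833920), beside it, had 31.4, 23.5 and 27.2 CPM in *flpl1*, against 50.9, 48.6 and 69.9 CPM in Col-0. The third gene, *AKR4C10*, had 31.2, 31.9 and 26.0 CPM in *flpl1*, against 5.85, 5.93 and 6.22 CPM in Col-0, and was an upregulated DEG (log2 fold change 2.46, standard error 0.15, adjusted p = 7.08e-05, edgeR).

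In the array of tropinone reductase-like genes, 3 of 9 were members: AT2G29170 (ratio 0.418), AT2G29320 (0.447) and AT2G29370 (0.00537). The genes AT2G29290, AT2G29310 and AT2G29360 of the same array had ratios of 1.25, 1.29 and 1.21. In the UGT73C array all 6 genes had ratios under 0.5. *DOGT1* (AT2G36800, Chr. 2, 15423380 to 15425016), which glucosylates a fungal toxin and brassinosteroids, had 3.94, 6.93 and 10.4 CPM in *flpl1*, against 52.3, 54.8 and 91.1 CPM in Col-0. *UGT73C6* had 1.58, 1.55 and 3.87 CPM in *flpl1*, against 8.53, 10.7 and 7.86 CPM in Col-0, and the 4 other genes of the array, below the CPM minimum, had ratios between 0.0135 and 0.273 on few counts. The predicted proteins of *DOGT1* and *UGT73C6* were 89.3% identical, so reads may be divided between them uncertainly.

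**Figure D4:**
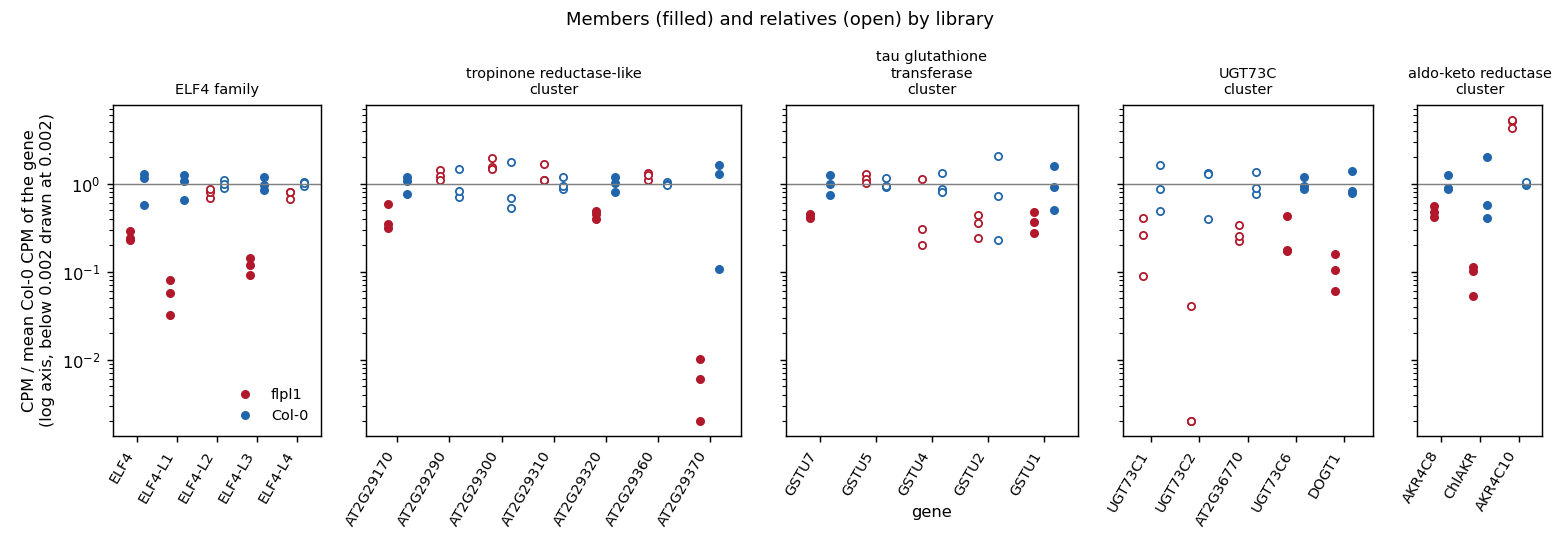
CPM of each library divided by the mean Col-0 CPM of the gene (logarithmic axis) for the ELF4 family and 4 tandem arrays, with *flpl1* in red, Col-0 in blue, members filled and their relatives open, without genes of a mean Col-0 CPM under 1. The 3 ELF4 genes of Chr. 2 lie at 0.253 or less on average, *ELF4-L2* and *ELF4-L4* at 0.783 and 0.755, and *AKR4C10* at 4.95.

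Members of transport and primary metabolism were named after their values were seen. *PHO2*, a regulator of phosphate homeostasis, had 202, 247 and 352 CPM in *flpl1*, against 446, 699 and 806 CPM in Col-0. *PAP12*, a purple acid phosphatase gene of phosphate starvation, had 27.2, 24.0 and 36.0 CPM in *flpl1*, against 87.6, 108 and 115 CPM in Col-0. The phosphate transporter gene *PHT1;4* and the galactolipid synthase gene *MGDC* had ratios of 0.379 and 0.142, and in both the groups overlapped. *PHT1;4* was outside the limits without Col-0 replicate 3, and the ratio of *MGDC* was 0.0931 without *flpl1* replicate 3. The ureide permease genes *UPS2* and *UPS1*, near each other on the chromosome, had ratios of 0.260 and 0.437, and the amino acid transporter gene *CAT5* had 0.129. For *UPS1* the ratio was 0.181 without *flpl1* replicate 3, and the gene was outside the limits without *flpl1* replicate 1 or 2.

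*PKT3*, the thiolase of peroxisomal fatty acid beta-oxidation, had 187, 176 and 175 CPM in *flpl1*, against 465, 450.2 and 472 CPM in Col-0. *CSY3*, a peroxisomal citrate synthase gene, had 48.5, 43.1 and 50.4 CPM in *flpl1*, against 126, 138 and 132 CPM in Col-0, and it overlaps a gene on the opposite strand by 1346 bp. The plants of each genotype agreed closely in *PKT3*. *GAD4*, a glutamate decarboxylase gene, had 1.95, 2.0 and 1.85 CPM in *flpl1*, against 11.2, 15.4 and 34.5 CPM in Col-0, and its ratio was 0.145 without Col-0 replicate 3 in place of 0.0947.

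The following members were also named after their values were seen. *CPK6*, a calcium-dependent protein kinase gene, had 13.5, 14.9 and 28.2 CPM in *flpl1*, against 71.1, 77.9 and 70.6 CPM in Col-0. The calmodulin-binding protein genes *CAMBP25*, *IQD14* and AT2G38800 had ratios of 0.407, 0.453 and 0.455, and the glutamate receptor gene *GLR2.7* had 0.352. *RLP23*, a receptor-like protein gene whose product shares 63.9% identity with that of *RLP20*, had 4.28, 5.89 and 8.20 CPM in *flpl1*, against 57.5, 31.7 and 38.2 CPM in Col-0. In each of these genes the groups were separate. In the deposited gene ontology terms, 8 members were assigned to salt stress (4.3%, against 1.94% of the other genes of Chr. 2 that passed the CPM minimum), 7 to water deprivation (3.76%, against 1.79%) and 5 to the abscisic acid-activated signaling pathway (2.69%, against 0.735%). Response to abscisic acid (2.69%, against 1.73%) and response to cold (2.69%, against 2.36%) differed less. Other terms were also more frequent: the auxin-activated signaling pathway (6 members, 3.23%, against 0.84%) and response to salicylic acid (5, 2.69%, against 0.683%). The same held for cellular response to hypoxia (5, 2.69%, against 0.788%) and oxidoreductase activity (8, 4.3%, against 0.893%). The chloroplast was named for 9 members (4.84%, against 10.3%) and the mitochondrion for 6 (3.23%, against 10.1%). Only terms held by at least 5 members were compared, so terms rare among members are left out. These shares were not tested.

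Neighboring members without regard to family were also counted. Among all listed Chr. 2 genes there were 18 runs of 2 or 3 adjacent members, which held 37 members. The longest held *SKIP3*, *PP2-B10* and AT2G02370. *PP2-B10* (AT2G02360, Chr. 2, 619406 to 620768), a phloem lectin gene, had 27.2, 31.9 and 45.7 CPM in *flpl1*, against 69.9, 81.4 and 80.9 CPM in Col-0. Other runs paired the ureide permease gene *UPS2* (ratio 0.260) with AT2G03540, the vacuolar transporter gene *ABCC2* (0.331) with AT2G34655, the pyrophosphatase gene *PPa2* (0.384) with AT2G18240, and the glutamate synthase gene *GLU2* (0.415) with *PIP5K5*. The gene of the highest Col-0 CPM was named for each run. Runs with *CAX1*, *HB-7*, *DOGT1*, *AKR4C8*, AT2G25450 or AT2G41380 hold genes described above. The remaining runs were led by the ubiquitin fusion degradation gene AT2G29070 (ratio 0.471), the calmodulin-binding protein gene AT2G38800 (0.455), the DnaJ-domain gene AT2G41000 (0.379), the lipid-transfer protein gene AT2G44290 (0.340), AT2G46735 (0.336), *VGD1* (0.0713) and the glutaredoxin gene AT2G47880 (0.248).

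*VGD1* and its neighbor *VGDH1* encode pectin methylesterases known from pollen tubes. *VGD1* (AT2G47040, Chr. 2, 19327896 to 19330197) had 0, 1.05 and 2.07 CPM in *flpl1*, against 13.1, 22.1 and 8.58 CPM in Col-0. *VGDH1* (AT2G47030, Chr. 2, 19324233 to 19326397) had 0, 0.150 and 1.04 CPM in *flpl1*, against 4.91, 7.87 and 2.77 CPM in Col-0. It was outside the limits without Col-0 replicate 2. Without *flpl1* replicate 3 the ratio of *VGD1* was 0.0359 in place of 0.0713 and that of *VGDH1* 0.0144 in place of 0.0762, and *VGDH1* had 0.114 without *flpl1* replicate 1. Among the flower markers, *PI* and *SEP3* were lower and *AG* higher in every *flpl1* library than in any Col-0 library. *AP3* lay at 0.04 to 0.38 FPKM in *flpl1* and 0 to 0.12 FPKM in Col-0. The part of floral tissue in these genes was not tested.

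In windows of 1000000 bp, members made up at most 12.2% of the genes above the minimum, except in the window from 12000001 to 13000000, where 21 of 121 genes (17.4%) were members. It holds the tropinone reductase-like and glutathione transferase arrays, *THIC* and *ELF4-L1*. Of all members, 22 overlapped another gene and 19 of these a gene on the opposite strand. Since the use of the strand in counting is not given in the sources used here, reads of such pairs cannot be told apart. Among the genes named above, *THIC*, *GSTU7*, AT2G46600, *RLP23* and *CSY3* overlap an opposite gene by 23, 52, 35, 6 and 1346 bp.

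Most members have a relative on another chromosome, and these relatives were not used to choose them. For 145 members, the translated coding sequences gave a best match outside Chr. 2 (blastp, E-value up to 1e-20 over at least 50% of the protein), with a median identity of 62.5%. The matches were 137 different genes, of which 113 were tested. Of these, 37 (32.7%) were downregulated and 10 (8.85%) upregulated, where 15.6% and 17.4% of the genes of Chr. 1, 3, 4 and 5 were. Their median log2 fold change was -0.56, against -0.10 for these chromosomes. The upregulated count was 5 with limma on log2(FPKM + 1). At 60% identity or more, 24 of 65 (36.9%) were downregulated and 7 (10.8%) upregulated. The members and these genes were measured in the same libraries, and the shares are a description.

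The examples below were chosen after their values were seen. *CAX3* on Chr. 3 (19239427 to 19242913), the closest relative of *CAX1*, had 0.664, 1.30 and 1.94 CPM in *flpl1*, against 543, 600.3 and 819 CPM in Col-0 (log2 fold change -8.83, standard error 0.42, adjusted p = 6.58e-05, edgeR). *HB-12* on Chr. 3, the relative of *HB-7*, had 8.80, 6.13 and 10.6 CPM in *flpl1*, against 55.5, 88.5 and 90.7 CPM in Col-0 (log2 fold change -3.04, standard error 0.23, adjusted p = 0.000101). *MYB112* on Chr. 1, the relative of *MYB2*, had 0.747, 0.698 and 0.540 CPM in *flpl1*, against 11.2, 28.9 and 18.1 CPM in Col-0 (log2 fold change -4.68, standard error 0.36, adjusted p = 0.000107). In each of these pairs the libraries of both genes were separated between the genotypes, with a wider separation in *CAX3* than in *CAX1*.

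The relatives of other members moved the other way. *FED A* on Chr. 1, the major leaf ferredoxin gene and relative of *FD3*, had 2157, 1556 and 1477 CPM in *flpl1*, against 557, 612 and 672 CPM in Col-0 (log2 fold change 1.65, standard error 0.22, adjusted p = 0.000647). *FD3*, a ferredoxin gene of non-green tissue, had 6.19, 6.88 and 7.97 CPM in *flpl1*, against 8.12, 24.6 and 13.9 CPM in Col-0, and was outside the limits without Col-0 replicate 2. *BAM5* on Chr. 4, the beta-amylase relative of *BAM6*, had 56.5, 21.3 and 8.65 CPM in *flpl1*, against 0.325, 0.946 and 4.62 CPM in Col-0 (log2 fold change 4.10, standard error 0.98, adjusted p = 0.00818), with a wide spread among the mutant plants.

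**Figure D5:**
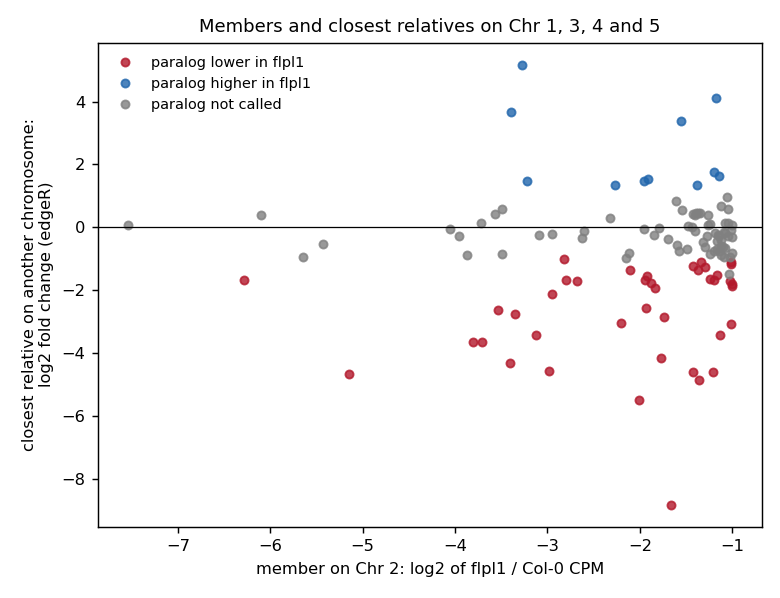
Members on Chr. 2 by the log2 ratio of their CPM in *flpl1* to Col-0 (horizontal) against the edgeR log2 fold change of the closest relative on another chromosome (vertical), 1 point for each member whose relative was tested. Of the 121 points, 41 are red (relative downregulated), 11 blue (upregulated) and 69 grey (neither), some members share a relative, and the lowest point is *CAX3* at -8.83.

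Short motifs of clock, stress and defence factors were searched in the promoters of all members. Examples that hold a match are shown for members of the clock, thiamine, glutathione transferase and MYB genes. Each sequence shown is the 250 bases before the deposited start of the gene, taken from the TAIR10.1 genome of RefSeq. It is written 5′ to 3′ on the strand of the gene, with matches in capitals.
THIC: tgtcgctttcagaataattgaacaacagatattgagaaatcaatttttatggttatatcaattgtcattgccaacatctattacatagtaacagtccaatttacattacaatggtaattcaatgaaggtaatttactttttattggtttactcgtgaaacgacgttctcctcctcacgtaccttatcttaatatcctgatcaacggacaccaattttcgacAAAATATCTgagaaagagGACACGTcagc
ELF4-L1: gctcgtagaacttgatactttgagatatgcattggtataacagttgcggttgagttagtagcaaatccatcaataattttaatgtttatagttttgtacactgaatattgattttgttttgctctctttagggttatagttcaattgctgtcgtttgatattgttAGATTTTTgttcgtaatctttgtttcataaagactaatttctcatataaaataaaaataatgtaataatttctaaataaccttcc
GSTU7: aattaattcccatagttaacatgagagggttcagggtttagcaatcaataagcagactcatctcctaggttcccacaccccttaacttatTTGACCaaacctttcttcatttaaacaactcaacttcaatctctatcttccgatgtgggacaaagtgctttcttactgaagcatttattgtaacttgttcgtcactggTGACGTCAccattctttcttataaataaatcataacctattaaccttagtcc
MYB2: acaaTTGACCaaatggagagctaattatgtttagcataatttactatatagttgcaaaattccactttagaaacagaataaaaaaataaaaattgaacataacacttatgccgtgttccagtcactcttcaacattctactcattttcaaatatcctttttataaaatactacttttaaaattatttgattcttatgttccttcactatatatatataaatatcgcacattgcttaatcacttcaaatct
The *THIC* window (chr2:12666685-12666934, plus strand) holds the evening element AAAATATCT and, in reverse, the abscisic acid response element ACGTGTC. The *ELF4-L1* window (chr2:12767335-12767584, plus strand) holds the CCA1 site AAAAATCT in reverse, whereas the promoters of *ELF4* and *ELF4-L3* held none of the motifs searched. The *GSTU7* window (chr2:12618900-12619149, minus strand) holds a W-box TTGACC and the TGA factor motif TGACGTCA, and the *MYB2* window (chr2:19375952-19376201, plus strand) a W-box TTGACC.

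Over all members, the W-box TTGACC was present on either strand in 37 of 186 promoters (19.9%), against 11.8% of the 1904 other Chr. 2 genes above the minimum and 12% of all 32032 promoters searched. A second form, TTGACT, was as common in members (18.8%) as in all promoters (18.9%). The evening element was present in 8 member promoters (4.3%, against 2.0% and 2.15%), the CGCG box ACGCGT in 8 (4.3%, against 1.63% and 1.97%) and ACGTGTC in 13 (6.99%, against 5.04% and 3.94%). The G-box CACGTG, which can overlap ACGTGTC, was present in 8.06%, against 8.82% and 6.85%, and the GCC box GCCGCC in 1.08%, against 2.52% and 2.18%. The CCA1 site AAAAATCT was present in 15 member promoters (8.06%, against 6.83% and 6.22%) and TGACGTCA in 3 (1.61%, against 0.473% and 0.524%). These shares are descriptions of sequence, without a test. The base composition was similar, with a median GC content of 32.2% in member promoters and 32.8% in those of the other Chr. 2 genes.

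The plants did not carry the pattern equally. With each gene divided by its Col-0 mean, the members had medians of 0.300, 0.321 and 0.391 for *flpl1* plants 1, 2 and 3, against 0.855, 1.07 and 1.03 for the Col-0 plants. The third *flpl1* library was the highest of the mutant libraries for 129 of the 186 genes, and for 47.1% of the other Chr. 2 genes above the minimum. Col-0 replicate 1 was the lowest of the wild type libraries for 122 of the 186 members, and for 60.7% of the other genes. The coefficient of variation among the *flpl1* plants had a median of 20.3% for members and 10% for the other genes, and among the Col-0 plants of 23.2% and 14.1%. When the same limits were applied to 2 plants of each genotype, 198, 156 or 204 genes were chosen with the plants numbered 1, 2 or 3 left out, and the left-out pair had no part in the choice. In that pair their median ratio was 0.381, 0.263 and 0.424, and 66.2%, 90.4% and 64.2% of the chosen genes were at or under 0.5 in it. A ratio below 1 was found for 190, 154 and 201 of them. With all plants, 37.0% of the Chr. 2 genes above the minimum were below 1 and 8.90% at or under 0.5. Those 2 shares rest on the means of all plants. The shares of all Chr. 2 genes in each left-out pair were not computed, so a like comparison is missing. Of the 186 members, 134 stayed within the limits whichever single library was left out.

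Single libraries moved some members far. *ABCB4*, an auxin transporter gene, had 6.10, 12.8 and 44.9 CPM in *flpl1*, against 30.8, 44.7 and 52.0 CPM in Col-0, and the third mutant plant lay within the Col-0 range. Its ratio was 0.222 without that plant in place of 0.50, and leaving out any of 4 other libraries put it outside the limits. AT2G30766, which overlaps an opposite gene by 313 bp, had 0.125, 16.3 and 0.901 CPM in *flpl1*, against 36.9, 2.58 and 3.75 CPM in Col-0, with 1 high plant in each group. Its ratio of 0.399 became 0.0355 without *flpl1* replicate 2 and 1.82 without Col-0 replicate 1, and it was also outside the limits without *flpl1* replicate 1 or 3. AT2G24600, an ankyrin repeat gene, had 10.5, 13.8 and 16.6 CPM in *flpl1*, against 57.3, 13.6 and 11.7 CPM in Col-0, and its ratio was 1.08 without Col-0 replicate 1 in place of 0.495. It was also outside the limits without *flpl1* replicate 1. AT2G30766 and AT2G24600 were named after their values were seen.

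Genes just inside the ratio limit were *ABCB4* (0.50), AT2G43540 (0.50) and *GBF3* (0.499), and just outside it AT2G33550 (0.503), AT2G32150 (0.504) and *EULS3* (0.506). At the CPM limit, AT2G41905, *CYP76C2* and *VGDH1* had Col-0 means of 5.08, 5.09 and 5.19 CPM, and *CHI*, AT2G04135 and AT2G04495 lay outside with 4.89, 4.82 and 4.73 CPM at ratios of 0.371, 0.00935 and 0.114.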

How the data were processed

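The deposited tables hold, for each gene and library, the read count and the FPKM. The authors trimmed the reads with Cutadapt 1.9.1, mapped them with HISAT2 to the TAIR10 genome and obtained counts per gene with HTSeq 0.6.1, and the count was used as deposited, without normalization. The deposited FPKM is scaled by exonic size and library total, and was used for levels between genes. Which annotation was used, and whether strand was considered in counting, are not given in the sources used here. The members and gene lists were chosen with earlier results of these data known.

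CPM divided each count by the total over all genes of its library. Across all genes, edgeR 4.0.16 (R 4.3.3) tested 18638 genes after filterByExpr with TMM scaling, the quasi-likelihood test and Benjamini-Hochberg adjustment. The biological coefficient of variation was 22.2%. Relatives came from BLAST 2.17.0 on translated TAIR10.1 coding sequences. The coding extent of 95.9% of 26712 genes lay inside the deposited bounds on that build. The libraries of 19465078 to 24633070 counts limit genes of few counts, and 3 plants per group limit the rest. The edgeR fit was tested on simulated counts, and the choice of members, the motif search and the search for relatives were not.

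The naming rule took the 12 members with the lowest ratios, the 12 with the highest Col-0 FPKM, members in a gene list, 3 genes on each side of both limits and the highest Col-0 member of each run of adjacent members. It gave 48 members, and 29 further members with values were named after their values were seen. Alternatives were DESeq2 1.42.0, limma 3.58.1 on log2(FPKM + 1), other scalings and filters, a replicate block, and the removal of 1 plant at a time. Same-numbered plants did not deviate together (correlations 0.03, -0.12 and 0.10), so the main test did not treat the numbers as pairs. Where plants of the same number were left out together, the number served only as a label.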

Additional observations from a re-analysis of the deposited data

How the results depend on the processing

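With the libraries centred on the median of the genes outside Chr. 2, 107 genes met the limits, 106 of them among the 186, and the median ratio of the 186 was 0.473. This centring raises each ratio, since the genes outside Chr. 2 had a median of 0.763. With TMM-scaled CPM 146 genes met the limits and with DESeq2 size factors 144, all among the 186. TPM gave 220, a Col-0 minimum of 2 or 10 CPM 228 or 156, and medians 183. Leaving out 1 plant, or the same number in both groups, gave 156 to 208 genes. With 1 plant left out, the median ratio of the 186 was 0.316 to 0.368. Of 616 alternative ratios of 77 named members, 63 were above 0.5, and 2 were above 1, both without Col-0 replicate 1. With a plant left out, the ratio of AT2G24600 ranged over 0.384 to 1.08 and that of AT2G30766 over 0.0355 to 1.82.

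With a plant left out, the members called lower numbered 123 to 151, the pathway genes on other chromosomes called lower 58 to 62 and higher 19 to 43, with 43 without Col-0 replicate 1, and the relatives called lower 36 to 39 and higher 8 to 10. With limma on log2(FPKM + 1), 2463 genes in all were called higher against 3697, and 5 relatives against 10, and the cause was not tested. With the replicate number as a block, 143 members, 61 and 25 pathway genes and 38 and 10 relatives were called lower and higher, and over all genes 2623 and 3656. DESeq2, RLE scaling and no filter kept each count within 1.5 times. Genes with few counts in *flpl1* are limited by depth, and no result was tested in other plants or lines.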
